A study of Mus musculus with 20 samples.

Results

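The 10 core genes of the circadian clock were described in hearts of iron-deficient anemic (IDA) and control mice: the activators *Arntl* (the gene of BMAL1), *Clock* and *Npas2*, the repressors *Per1*, *Per2*, *Per3*, *Cry1* and *Cry2*, and the nuclear receptors *Nr1d1* and *Nr1d2* (REV-ERB alpha and beta). They were picked by symbol from the 23420 genes counted, because *Per3* differed between the diets very consistently. The contrast of the diets therefore chose the group, and the differences of these 10 genes between the diets are given as a description, without a test. RNA-seq had been performed on whole hearts of 20 wild type male C57BL/6 mice (C57BL/6J in the study's methods) aged 9 weeks. From 3 weeks of age, 10 mice (IDA) had received an iron-deficient diet for 6 weeks and 10 mice (control) an iron-adjusted diet. The iron content of the deficient diet is given inconsistently by the submitters, as above 2 ppm in one label and below it in another. The hour at which hearts were removed is not given in the sources used here.

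The clock is a feedback loop that runs in nearly every cell. BMAL1 pairs with CLOCK, or with its relative NPAS2, binds E-box sequences and switches on the *Per* and *Cry* genes, whose proteins gather, enter the nucleus and shut the pair down. In a second loop, the REV-ERB receptors repress *Arntl* and the ROR receptors activate it through the same DNA element. A further set of regulators, the activators DBP, TEF and HLF and the repressor NFIL3, acts through D-box sequences. In heart, each gene of the loop is high at its own phase of the day, *Arntl* and *Npas2* at about the opposite phase to *Nr1d1*, *Dbp* and *Per3*. A single collection per mouse gives a level at one time only. In bulk tissue, less RNA per cell and fewer cells of a type cannot be told apart.

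The 3 kinds of element could be read in the RefSeq promoters of the members. Promoters covered 250 bases before to 50 bases after a start site in GRCm38.p6, which is the mm10 build of the counts. Entries were matched by symbol for 9 of the 10 members (13 promoters), and *Per2* had none. Both strands were searched for the E-box CACGTG, the D-box TTANGTAA and the ROR element TAGGTCA, none of which overlapped another in these promoters. At least 1 of them was found in 4 members. *Per3* held the D-box at 2 places, 205 and 158 bases before its start, whereas 2.32% of all 32815 promoters held at least 1 D-box and 0.0823% held 2 or more. *Per1* held the E-box 166 bases before its start and *Cry1* 60 bases before it, an element found in 7.15% of promoters. *Arntl* held the ROR element at base 31 after one of its starts, an element found in 2.61% of promoters. A match describes the letters in this window and is not a measured site. The stretches are printed below 5′ to 3′ on the strand of the gene, with the matched elements in capitals, because they hold letter matches to the 3 kinds of element. The *Per3* stretch was chr4:151044666-151044915 (minus strand), the *Per1* stretch chr11:69098699-69098948 (plus strand) and the *Cry1* stretch chr10:85185055-85185304 (minus strand), each ending at the base before the start. The *Arntl* stretch was chr7:113207530-113207559 (plus strand), within the first exon.
Per3, D-boxes: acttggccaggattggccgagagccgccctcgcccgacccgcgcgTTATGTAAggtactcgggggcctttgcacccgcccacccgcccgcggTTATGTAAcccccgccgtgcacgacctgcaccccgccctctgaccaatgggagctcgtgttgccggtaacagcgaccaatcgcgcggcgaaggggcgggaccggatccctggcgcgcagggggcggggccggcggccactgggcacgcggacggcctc
Per1, E-box: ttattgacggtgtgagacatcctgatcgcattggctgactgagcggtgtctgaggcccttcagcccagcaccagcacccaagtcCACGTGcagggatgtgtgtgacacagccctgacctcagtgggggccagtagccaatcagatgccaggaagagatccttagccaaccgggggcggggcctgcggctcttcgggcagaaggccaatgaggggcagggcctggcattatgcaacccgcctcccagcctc
Cry1, E-box: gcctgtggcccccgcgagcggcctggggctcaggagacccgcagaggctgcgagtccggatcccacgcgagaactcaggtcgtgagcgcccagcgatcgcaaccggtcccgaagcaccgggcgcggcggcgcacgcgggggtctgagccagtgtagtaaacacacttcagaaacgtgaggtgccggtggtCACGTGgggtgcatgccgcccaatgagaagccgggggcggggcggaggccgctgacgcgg
Arntl, ROR element: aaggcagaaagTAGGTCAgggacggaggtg

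Read pairs assigned to genes numbered 6797180 to 8960688 in control and 6682177 to 7833916 in IDA mice, and 13590 genes, all 10 members among them, passed a filter of at least 1 CPM (read pairs of a gene scaled to a fixed library total) in at least 10 mice. Markers of cardiomyocytes were abundant, with a summed level of 3690 to 4464 CPM in control and 3155 to 4552 CPM in IDA hearts. Of 11 listed red cell markers, 9 were in the file and 5 passed the filter. Of these, 4 rose in IDA, and the defining markers *Hba-a1* and *Hba-a2* were among those listed at 0 in every mouse. Their summed level was 143 to 224 CPM in control and 223 to 757 CPM in IDA. Macrophage markers rose in 3 of 5 cases, with summed levels of 404 to 470 CPM against 433 to 530 CPM. Those of B and T cells rose in 3 of 3 tested, with at most 24.2 CPM in any mouse. Of 6 cardiomyocyte markers 2 rose and 1 fell, and of 5 endothelial markers 2 rose and 2 fell. Of 5 smooth muscle and pericyte markers 2 rose and 2 fell, and of 5 fibroblast markers 1 rose and 1 fell. Among all tested genes 35.0% were higher and 32.5% lower in IDA. The part of the marker genes in the differences below was not tested. The 4 lung epithelium markers summed to at most 0.999 CPM. Fold changes of all genes also followed gene length. The slope of a library's log2 CPM on log2 exonic length, relative to the mean of all mice, was 0.020 to 0.199 in control and -0.254 to -0.025 in IDA mice, so the diets did not overlap. Each log2 fold change of IDA against control is therefore given as counted and again after a smooth correction for gene length, which took the share of genes past an adjusted p of 0.05 (edgeR's quasi-likelihood test, Benjamini-Hochberg over all tested genes) from 35.0% higher and 32.5% lower in IDA to 31.5% higher and 23.5% lower.

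*Per2*, *Per3* and *Clock* were lower in every IDA heart than in any control heart, and *Nr1d2* was lower in 9 of 10. *Per1*, *Cry1*, *Cry2*, *Arntl*, *Npas2* and *Nr1d1* overlapped widely between the diets. Since this contrast chose the group, no call by a threshold is given for the members.

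**Figure D1:**
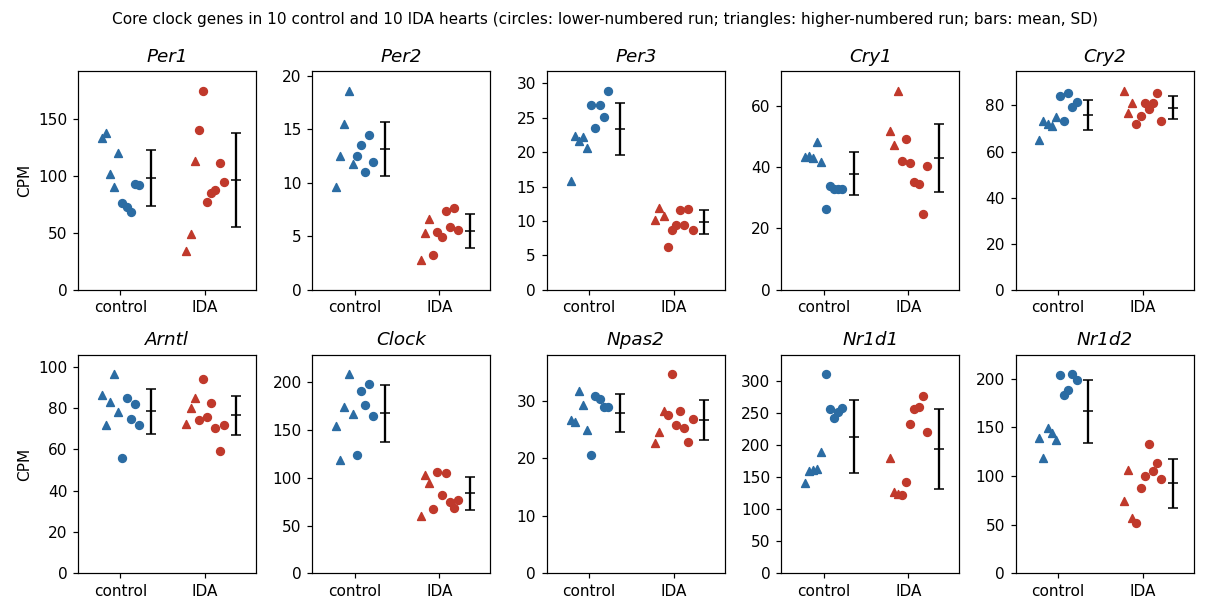
CPM (vertical axis, from 0) of each of the 10 core clock genes in 10 control (blue) and 10 IDA (red) hearts, 1 point per mouse, with the mean and SD as a bar at the right of each group. Circles and triangles are mice of the lower-numbered and the higher-numbered run in the column headers, described further on. The IDA points of *Per2*, *Per3* and *Clock* lie below all control points.

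The repressor *Per3* (chr4:151003655-151044622, minus strand, 5953 exonic bases) encodes a PERIOD protein that is less central to the loop than PER1 and PER2. Its level was lowest at 15.9, median 23.0 and highest at 28.9 CPM in control mice. In IDA mice it was lowest at 6.24, median 9.83 and highest at 11.8 CPM. Every IDA mouse lay below every control mouse. The log2 fold change was -1.25 ± 0.11 (SE, n = 10 and 10), and -0.88 ± 0.11 after the length correction, with the groups still apart. These levels rested on at least 106 read pairs per control library and on 50 to 86 per IDA library.

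*Per2* (chr1:91415982-91459328, minus strand, 5837 exonic bases) encodes a PERIOD protein central to the repression of the BMAL1 pair. It was the member with the lowest level per length in both diets. Control mice had 9.58, 12.5 and 18.6 CPM as lowest, median and highest, and IDA mice 2.78, 5.48 and 7.65 CPM. The diets did not overlap in CPM or in length-corrected values, although single IDA libraries held only 21 to 53 read pairs. The log2 fold change was -1.27 ± 0.15 as counted and -0.91 ± 0.13 after the correction.

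*Per1* (chr11:69098956-69109957, plus strand, 4698 exonic bases) is a PERIOD gene that also responds acutely to glucocorticoids and to light in the brain. It spanned 68.4 to 137 CPM in control mice with a median of 92.2, and 33.8 to 174 CPM in IDA mice with a median of 90.9. IDA mice lay on both sides of the control range, 2 below and 2 above it. The log2 fold change was -0.02 ± 0.21 as counted and 0.23 ± 0.20 after the correction, so the difference was within its error.

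The cryptochromes are the main partners of PER in repression. *Cry1* (chr10:85131700-85185054, minus strand, 3016 exonic bases) had 26.4 to 48.1 CPM in control and 24.7 to 64.9 CPM in IDA mice, with medians of 37.7 and 41.6. Its log2 fold change was 0.19 ± 0.13 as counted and 0.24 ± 0.13 after the correction. *Cry2* (chr2:92403647-92434069, minus strand, 4367 exonic bases) was the steadiest member, at 65.1 to 85.5 CPM in control and 72.2 to 86.4 CPM in IDA mice. Its log2 fold change was 0.06 ± 0.05 as counted, 0.29 ± 0.06 after the length correction and 0.09 ± 0.04 when GC content was corrected as well. *Cry2* shares 149 exonic bases (3.41% of its length) with *D930015M05Rik* on the other strand, and counting was done without strand.

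Among the activators, *Clock* (chr5:76212177-76304548, minus strand, 7478 exonic bases) stood apart from its partners. It had 118 to 208 CPM in control mice with a median of 171, and 60.0 to 107 CPM in IDA mice with a median of 79.7. The diets did not overlap as counted. After the length correction they touched, with control mice from 114 to 160 CPM and IDA mice from 82.8 to 115. The log2 fold change was -0.996 ± 0.11 as counted, -0.51 ± 0.07 after the length correction and -0.33 ± 0.05 with GC content corrected too. *Clock* is the longest member. The 1200 tested genes with a length between 0.8 and 1.2 times its own had a median log2 fold change of -0.46.

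*Arntl* (chr7:113207465-113314126, plus strand, 2908 exonic bases), without whose protein the loop stops, had 56.1 to 96.3 CPM in control and 59.4 to 94.1 CPM in IDA mice, with medians of 80.3 and 74.8. Its log2 fold change was -0.04 ± 0.08 as counted and -0.00 ± 0.08 after the correction. *Npas2* (chr1:39194272-39363240, plus strand, 4180 exonic bases) had 20.5 to 31.8 CPM in control and 22.7 to 34.6 CPM in IDA mice. Its log2 fold change was -0.06 ± 0.08 as counted and 0.14 ± 0.07 after the correction. *Clock* and *Npas2*, the alternative partners of BMAL1, thus had unlike values in the same hearts, and the value of *Arntl* was within its error.

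The REV-ERB receptors also differed from each other as counted and after the length correction, but less with GC content corrected too. *Nr1d2* (chr14:18204056-18239106, minus strand, 4640 exonic bases) had 118 to 204 CPM in control mice with a median of 166, and 51.7 to 132 CPM in IDA mice with a median of 98.6. A single IDA mouse reached into the control range. The log2 fold change was -0.85 ± 0.14 as counted, -0.60 ± 0.14 after the length correction and -0.40 ± 0.14 with GC content corrected as well. *Nr1d1* (chr11:98767935-98775242, minus strand, 2627 exonic bases) had 141 to 310.0 CPM in control mice and 122 to 276 CPM in IDA mice, with medians of 215 and 199.6. Its log2 fold change was -0.14 ± 0.17 as counted and -0.15 ± 0.17 after the length correction. With GC content corrected as well it was -0.33 ± 0.17, near the value of *Nr1d2* in that fit. In the GENCODE annotation, 263 exonic bases of *Nr1d1* (10.01%) overlap *Thra* on the other strand, whose reads cannot be told apart without strand.

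**Figure D2:**
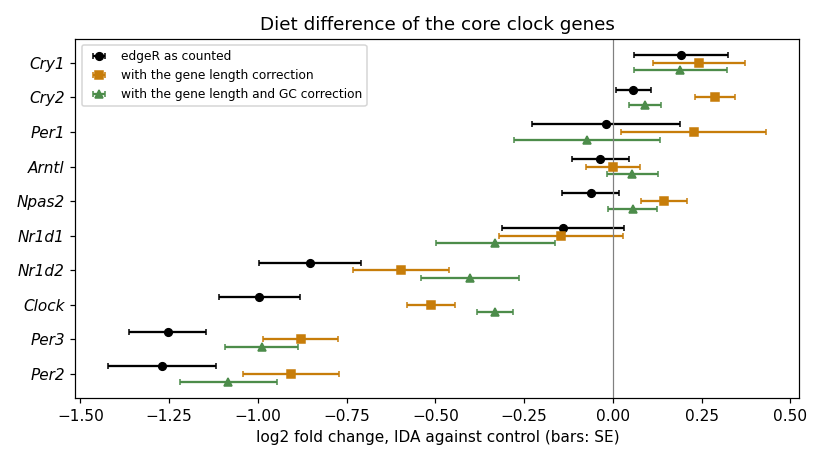
Log2 fold change of IDA against control (horizontal axis, bars are SE, 10 mice per diet) for each core clock gene as counted (black), with the gene length correction (orange) and with the gene length and GC correction (green). *Per2* and *Per3* stay near -0.9 or below under all 3, and *Clock* moves from -0.996 to -0.33. The 6 genes at the top lie between -0.14 and 0.19 as counted. Among them *Cry2* is at 0.29 with the length correction and *Nr1d1* at -0.33 with the length and GC correction.

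Across the members the 3 genes with non-overlapping CPM made 3 of 10, all lower in IDA, beside 6.28% of all tested genes lower and 4.97% higher without overlap. After the length correction 2 of 10 were apart (*Per2* and *Per3*), both lower in IDA, beside 2.12% of all tested genes lower without overlap. The share higher without overlap is not given for that correction. The median log2 fold change of the 10 members was -0.10 and that of all tested genes 0.02, and after the length correction the medians were -0.07 and 0.04. With the mean level of the red cell markers as a covariate, *Per3* was at -1.33 ± 0.20, *Per2* at -1.39 ± 0.26, *Clock* at -1.07 ± 0.20 and *Nr1d2* at -0.95 ± 0.25. The red cell markers themselves went with the diet, at a summed 143 to 224 CPM in control and 223 to 757 CPM in IDA. This fit therefore cannot tell their part from that of the diet.

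**Figure D3:**
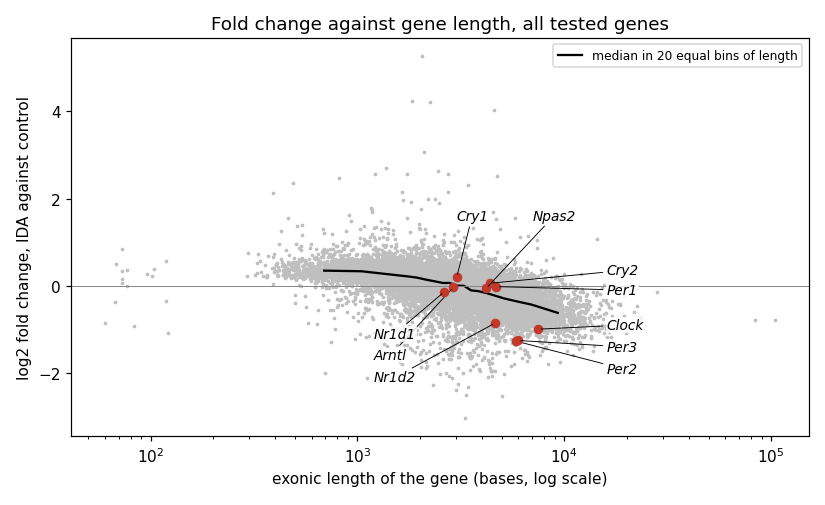
Log2 fold change of IDA against control (vertical axis) against exonic length in bases (horizontal axis, log scale) for the 13590 tested genes (grey), with the median in 20 equal bins of length (black line) and the core clock genes in red. *Per2*, *Per3* and *Nr1d2* lie well under the line and *Clock* nearer to it.

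Levels differed widely between the members. Per kb of exon, control hearts were ordered *Nr1d1* (81.2 ± 21.7 CPM per kb, SD, n = 10), *Nr1d2* (35.9 ± 6.97), *Arntl* (27.0 ± 3.73), *Clock* (22.4 ± 3.93), *Per1* (20.9 ± 5.19), *Cry2* (17.4 ± 1.47), *Cry1* (12.5 ± 2.30), *Npas2* (6.66 ± 0.80), *Per3* (3.93 ± 0.63) and *Per2* (2.25 ± 0.44). Neighbouring genes were compared within each mouse. In 7 of the 9 neighbouring pairs the order held across mice, with adjusted p between 0.0029 and 0.013 (exact two-sided sign-flip permutation test over 10 mice, Benjamini-Hochberg over 9 pairs). *Clock* and *Per1* (adjusted p = 0.488, same exact test) and *Per1* and *Cry2* (adjusted p = 0.154, same exact test) could not be ordered. In IDA hearts *Nr1d1* was again first at 73.9 ± 23.6 CPM per kb, and *Npas2* (6.37 ± 0.82), *Per3* (1.65 ± 0.29) and *Per2* (0.94 ± 0.27) were again last, each above the next in 10 of 10 mice. *Clock* lay in seventh place there, at 11.2 ± 2.29 CPM per kb, below *Cry1* at 14.3 ± 3.66 (adjusted p = 0.044 by the exact test, higher in 8 of 10 mice). These levels are as counted. The length correction took the IDA median of *Clock* from 79.7 to 98.6 CPM and that of *Cry1* from 41.6 to 42.8 CPM. No order with that correction is given for IDA hearts, so the place of *Clock* there is a description of values as counted.

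Individual mice within a diet spread unequally over the members. The biological coefficient of variation after removing the diet means was 32.1% for *Per1*, rank 45 from the most variable among 13590 genes relative to genes of its mean level, 26.6% for *Nr1d1* (rank 67) and 22.0% for *Nr1d2* (rank 188). *Clock* (17.4%, rank 530) and *Cry1* (20.04%, rank 739) followed. *Arntl* (12.2%), *Per2* (19.7%), *Npas2* (11.2%) and *Cry2* (7.22%) were closer to genes of their level or steadier. *Per3* had 14.7%, rank 4433.

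Spread of some members went with the mouse number that stands in each column header of the count table, which differs from the replicate number. The header numbers form 2 unbroken runs. The lower-numbered run holds control mice 6 to 10 and IDA mice 4 to 10, the higher-numbered run control mice 1 to 5 and IDA mice 1 to 3, and what the numbers mark is not given in the sources used here. This split was chosen after the values were seen. *Nr1d1* was at 241.7 to 310.0 CPM in control mice 6 to 10 (lower run) and at 141 to 189 CPM in control mice 1 to 5 (higher run). In the lower run IDA mice 6 to 10, numbered directly after those controls, were at 219.8 to 276 CPM and IDA mice 4 and 5, numbered directly before them, at 122 to 143 CPM. IDA mice 1 to 3 (higher run) were at 124 to 179 CPM. High and low mice were thus present in each diet, and the 10 mice with the highest *Nr1d1* had consecutive numbers.

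*Nr1d2*, its close relative, followed the same numbers in control mice, with 183 to 204 CPM against 118 to 149 CPM. *Per3* was at 23.6 to 28.9 CPM in control mice 6 to 10 and 15.9 to 22.4 CPM in control mice 1 to 5. *Cry1* went the other way, with 26.4 to 33.8 CPM against 41.6 to 48.1 CPM. For these 4 members (of 10) the control runs did not overlap, beside 2.88% of all tested genes. These are the values from which the split was chosen, so nothing is read from that count. *Dbp*, a D-box activator driven by BMAL1 and CLOCK, had 24.9 to 67.8 CPM against 6.81 to 13.9 CPM in the same controls.

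**Figure D4:**
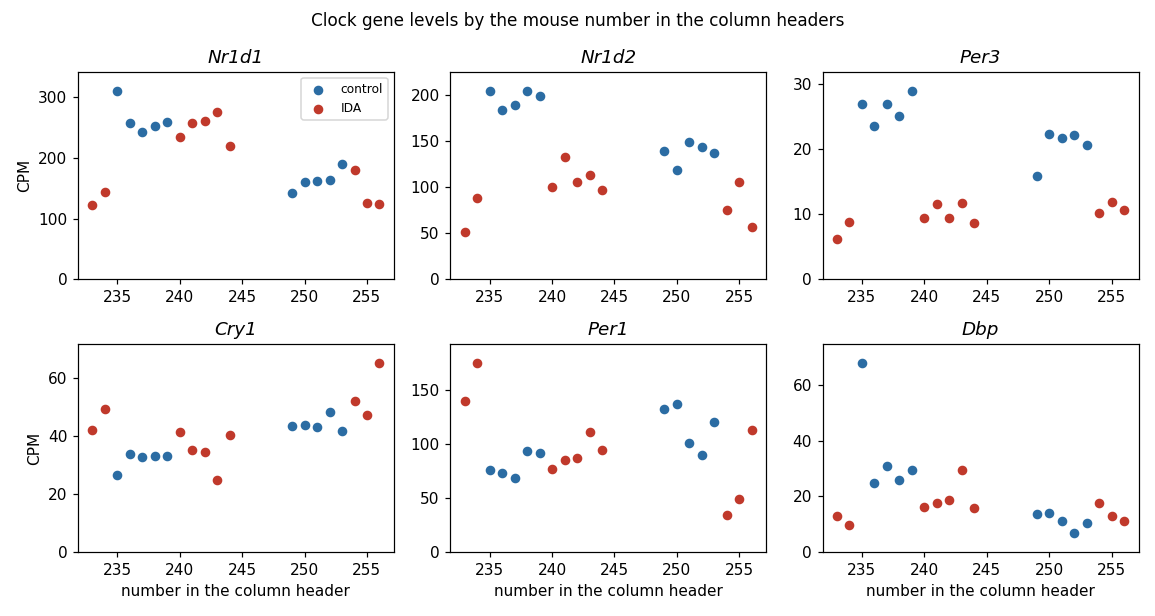
CPM (vertical axis, from 0) of 5 core clock genes and *Dbp* in each mouse against the number in its column header (horizontal axis), control in blue and IDA in red. *Nr1d1* is at 219.8 CPM or more in control and IDA mice 6 to 10, which have adjacent numbers, and at 189 CPM or less in the other mice. *Cry1* is mirrored to *Nr1d1* in control mice. *Per3* is lower in every IDA mouse than in any control mouse of either run.

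Because the split was chosen on these values, the differences between the runs are given without a test. In control mice the lower run minus the higher run was 0.69 ± 0.17 (log2 difference, SE) for *Nr1d1*, 0.51 ± 0.16 for *Nr1d2*, 0.36 ± 0.12 for *Per3*, -0.47 ± 0.13 for *Cry1*, -0.53 ± 0.25 for *Per1* and 1.69 ± 0.29 for *Dbp*. In IDA mice it was 0.59 ± 0.19 for *Nr1d1*, 0.31 ± 0.19 for *Nr1d2*, -0.22 ± 0.15 for *Per3*, -0.52 ± 0.14 for *Cry1*, 0.76 ± 0.28 for *Per1* and 0.31 ± 0.32 for *Dbp*. *Nr1d1* and *Cry1* thus kept their signs in both diets, and *Per1* and *Per3* had opposite signs in the 2 diets.

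The diet difference within each run is given for the members because mice of the 2 diets were not spread evenly over the runs. *Per3* was lower in IDA by a log2 fold change of -0.92 ± 0.16 in the higher run and of -1.49 ± 0.12 in the lower run. *Per2* was at -1.47 ± 0.26 and -1.16 ± 0.20, *Clock* at -0.94 ± 0.20 and -1.03 ± 0.15, and *Nr1d2* at -0.80 ± 0.20 and -0.998 ± 0.15, in that order. Each of these 4 genes was lower in IDA in both runs. *Per1* was at -0.83 ± 0.30 in the higher run and at 0.46 ± 0.23 in the lower run, opposite signs in the 2 runs. No test is given for the difference between the runs.

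Genes of the loop also covaried from mouse to mouse within a diet. Of 28 relations (14 pairs in each diet), 14 had a gene whose CPM or length-corrected values separated into blocks of consecutive header numbers, among them all those of *Per3* in control mice, and no pooled r is given for them. All permutation tests here were two-sided, and adjusted p are given for r and then for rho. Among the other 14, 3 passed an adjusted p of 0.05 (permutation test of Pearson's r on length-corrected log2 CPM, 100000 resamples, adjusted over all 28). *Arntl* and its partner *Clock* varied together in control (r = 0.79, rho = 0.83, adjusted p = 0.0255 and 0.0260 by permutation) and in IDA mice (r = 0.79, rho = 0.81, adjusted p = 0.0228 and 0.0279 by permutation). With the 2 mice of most extreme *Arntl* removed from each diet, r was 0.65 and 0.75 and neither passed any longer (adjusted p = 0.178 and 0.167 by permutation). *Arntl* and *Dbp* were opposed in IDA mice (r = -0.83, adjusted p = 0.0255 by permutation, and rho = -0.61, adjusted p = 0.142), but r was -0.35 without the 2 farthest mice (adjusted p = 0.626 by permutation), so that relation rests on them. In IDA mice *Per3* had r = -0.33 with *Arntl* and 0.41 with *Per2* (adjusted p = 0.436 and 0.336 by permutation). With the mean of each block of header numbers removed (20 mice, a description chosen after the values were seen), r was 0.87 for *Arntl* and *Clock*, -0.57 for *Arntl* and *Per3* and -0.87 for *Arntl* and *Dbp*. The last value includes control mouse 6 (*Dbp* 67.8 and *Arntl* 56.1 CPM) and IDA mouse 9 (29.4 and 59.4 CPM). Each had the highest *Dbp* and the lowest *Arntl* of its diet, and no value without them is given.

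Over the 20 mice with the mean of each diet removed, the 5 genes most like *Per3* in length-corrected log2 CPM were *Adamts7* (r = 0.77), *Ibtk* (0.77), *Lpar6* (0.75), the member *Cry2* (0.75) and *Wnk4* (0.74). The 5 most opposed were *Akap2* (-0.76), *Spire1* (-0.75), *Clec1a* (-0.74), *Kcna5* (-0.74) and *Chek1* (-0.73). Without the length correction, *Akap2* was at -0.23 and 2 of these 10 genes remained among the 10. Header runs were not removed here, and *Per3* separates by run in control mice, so the values are a description.

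The rest of the clock pathway was read from 65 listed genes, of which 64 were tested. As counted, 16 rose and 28 fell in IDA (edgeR's quasi-likelihood test, adjusted p below 0.05 over all 13590 genes), that is beside the 35.0% higher and 32.5% lower of all tested genes. After the length correction 16 rose and 21 fell, beside 31.5% and 23.5%, and with GC content corrected as well 15 rose and 17 fell. The 26 genes called in the same direction with and without the length correction comprised 8 that rose and 18 that fell. The share of all tested genes is not given for the GC fit or for calls in both fits, so nothing is read from those counts. The median log2 fold change of the list was -0.08 as counted and 0.01 after the length correction.

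**Figure D5:**
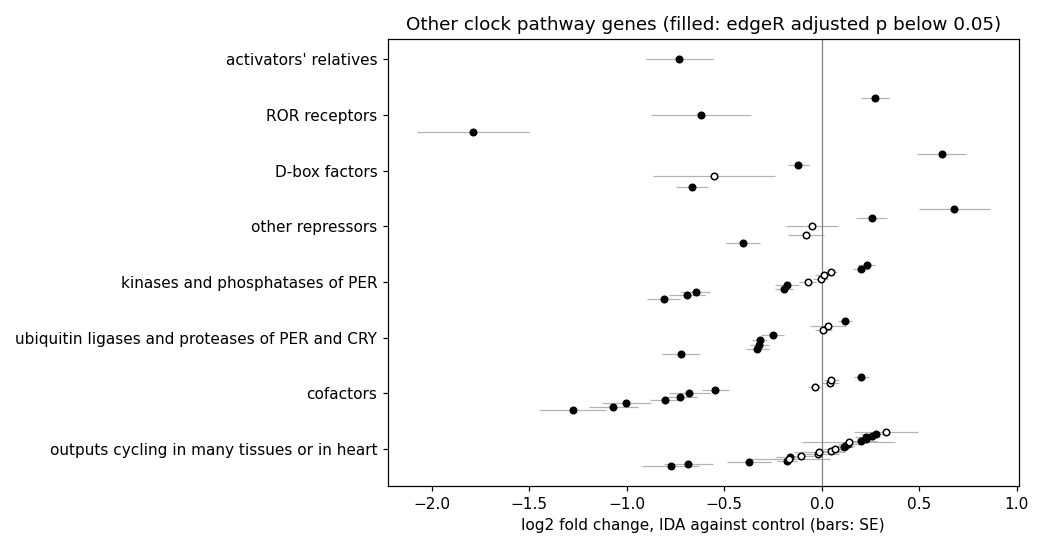
Log2 fold change of IDA against control (horizontal axis, grey bars are SE, 10 mice per diet) for the 64 other clock pathway genes tested, by list (vertical axis), filled where the edgeR adjusted p was below 0.05. The lowest point is *Rora* at -1.79, and 28 filled points lie to the left of 0 and 16 to the right.

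*Rora* and *Rorb* encode ROR receptors, which activate *Arntl* through ROR elements. The match printed above was not tested as such a site. *Rora* fell from 9.95 ± 4.42 CPM (SD, n = 10) in control to 2.91 ± 1.32 CPM in IDA hearts. The ranges were 2.09 to 16.2 and 0.999 to 6.07 CPM, so they overlapped, with 10 of 10 IDA mice below the control median. The log2 fold change was -1.79 ± 0.29 (edgeR adjusted p = 1.14e-05) and -1.98 ± 0.30 after the length correction, the largest drop of the 64 tested genes, at 8 to 39 read pairs per IDA library. *Rorb*, at 2.34 and 1.52 CPM, fell as counted (-0.62 ± 0.26, edgeR adjusted p = 0.0358) but was at -0.03 ± 0.23 after the length correction (adjusted p = 0.932).

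Of the D-box factors, whose element was matched by its letters at 2 places before *Per3*, 1 activator fell and the repressor rose under both treatments of length. *Hlf*, an activator, was at 61.0 to 92.6 CPM in control and 35.3 to 56.2 CPM in IDA mice without overlap (log2 fold change -0.67 ± 0.08, edgeR adjusted p = 5.32e-07), and at -0.31 ± 0.07 after the length correction. With that correction it was at -0.11 ± 0.10 in the higher run and -0.40 ± 0.08 in the lower run. *Nfil3*, the repressor, rose from 58.5 ± 15.1 to 89.4 ± 14.8 CPM (0.61 ± 0.13, edgeR adjusted p = 0.000189, and 0.49 ± 0.13 after the correction). In 8 of 10 IDA mice it was above every control mouse. Its control runs did not overlap, at 57.9 to 81.1 CPM (higher run) and 40.6 to 54.3 CPM (lower run). The log2 fold change of *Nfil3* was 0.42 ± 0.14 in the higher run and 0.92 ± 0.12 in the lower run. With the length correction these were 0.28 ± 0.14 and 0.81 ± 0.12. *Tef*, an activator, fell slightly as counted (-0.12 ± 0.05, edgeR adjusted p = 0.0459) and was at 0.12 ± 0.07 after the correction (adjusted p = 0.114). *Dbp* had medians of 19.4 CPM in control and 15.8 CPM in IDA. Its log2 fold change of -0.55 ± 0.31 did not pass as counted (edgeR adjusted p = 0.120) and passed narrowly after the correction (-0.72 ± 0.31, adjusted p = 0.0498). By run, *Dbp* was at 0.32 ± 0.35 in the higher run and at -1.07 ± 0.25 in the lower run.

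Among the other repressors, *Gm129* (the symbol of *Ciart* in the file, a repressor of the BMAL1 pair) rose from 3.80 ± 1.09 to 6.06 ± 1.87 CPM (log2 fold change 0.68 ± 0.18, edgeR adjusted p = 0.00224) and by 0.46 after the length correction (adjusted p = 0.0333). *Bhlhe41* (DEC2) fell as counted (-0.40 ± 0.09, edgeR adjusted p = 0.000237) and was at -0.01 ± 0.10 after the correction (adjusted p = 0.937). Its control runs did not overlap, at 45.6 to 52.1 CPM (higher run) and 53.4 to 67.0 CPM (lower run). As counted, *Bhlhe41* was at -0.07 ± 0.11 in the higher run and -0.62 ± 0.09 in the lower run. With the length correction it was at 0.33 ± 0.14 and -0.23 ± 0.11, opposite signs in the 2 runs. *Bhlhe40* (DEC1) was at -0.05 ± 0.13 (edgeR adjusted p = 0.744).

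The regulators that act on PER, CRY and BMAL1 proteins or on chromatin at clock genes numbered 30 tested, of which 17 fell and 4 rose as counted, beside 32.5% lower and 35.0% higher of all tested genes. After the length correction 12 fell and 9 rose, beside 23.5% and 31.5%. Of 11 cofactors 7 fell and 1 rose, and 5 fell and 2 rose after the length correction. The acetyltransferases *Crebbp* (-1.28 ± 0.17 as counted, edgeR adjusted p = 1.56e-06, and -0.79 after the correction) and *Ep300* (-1.002 ± 0.13, edgeR adjusted p = 8.31e-07, and -0.45) fell under both. So did the methyltransferase *Kmt2a*, listed as *Mll1* (-1.07 ± 0.13, edgeR adjusted p = 4.21e-07, and -0.26). Of 11 kinases and phosphatases of PER, 5 fell and 2 rose as counted, and 5 fell and 5 rose after the correction. *Gsk3b* fell under both (-0.81 ± 0.08, edgeR adjusted p = 2.10e-07, and -0.28). Of the 8 tested ubiquitin ligases and proteases, 5 fell and 1 rose as counted, against 2 that fell and 2 that rose after the correction. *Arntl2*, the relative of *Arntl*, fell from 3.63 to 2.18 CPM (-0.73 ± 0.17, edgeR adjusted p = 0.000665). Of 21 outputs that cycle in many tissues or in heart, 8 rose, 5 fell and 8 did not pass as counted, beside 35.0% higher and 32.5% lower of all tested genes, and 4 rose and 5 fell after the correction, beside 31.5% and 23.5%.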

How the data were processed

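The authors mapped read pairs (STAR, mm10), dropped duplicates by samtools and ran featureCounts (version 1.4.5-p1) per gene, ignoring strand. The deposited values are raw counts, 1 column per mouse. The study dropped 1 mouse per group as contaminated without naming it, so all 20 were kept, those 2 libraries included. The members and lists were chosen with earlier results of these data known.

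Counts were fitted with edgeR (version 4.0.16, TMM, quasi-likelihood) in R 4.3.3 for 13590 genes reaching 1 CPM in 10 or more mice. The length correction subtracted each library's loess trend (span 0.5) of log2 CPM on log2 exonic length as an offset. Log2 CPM used a prior count of 2. Alternatives included DESeq2 (version 1.42.0), a GC correction (99.3% of tested genes had a value), filters, covariates and leaving out each mouse. Fits were tested on simulated data. Named genes were the members, the 5 other clock genes past the threshold with the largest changes, *Dbp*, *Tef*, *Hlf*, *Nfil3*, *Bhlhe40*, *Bhlhe41*, *Ciart*, *Rora* and *Rorb*, and the 10 genes most like or unlike *Per3*. *Arntl2* was named after its value was seen, being alone in its list. Some listed genes are not reported here. Replicates were separate mice per the labels. Replicate numbers occur in both diets, but same-numbered mice did not deviate together (correlations -0.28 to 0.26).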

Additional observations from a re-analysis of the deposited data

Results flagged for a closer look

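Of 48 groups of 10 mice examined (each member and each other named clock gene in each diet), 4 held a mouse set apart from the rest by a gap of more than 0.47 of the group's range, where chance gives about 1 in 20. *Npas2* was at 34.6 CPM in IDA mouse 5, with the next mouse at 28.3. *Dbp* was at 67.8 CPM in control mouse 6 and at 29.4 CPM in IDA mouse 9, each the highest of its diet. *Rora* was at 6.07 CPM in IDA mouse 7.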

How the results depend on the processing

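Under 36 alternatives, *Per3*, *Per2*, *Clock* and *Nr1d2* remained lower in IDA, from -1.49 to -0.55, from -1.47 to -0.78, from -1.07 to -0.33 and from -0.998 to -0.40. Leaving out each mouse in turn gave -1.304 to -1.20, -1.34 to -1.20, -1.04 to -0.96 and -0.92 to -0.78. Values beyond the SD between mice came mainly from correcting gene length. *Per3* was then at -0.88, at -0.99 with GC content, at -0.87 with the replicate block and at -0.89 with the header run as a covariate. Within the higher-numbered run it was at -0.92, and at -0.55 with the length correction. *Clock* was at -0.51, -0.33 with GC content, -0.52 with the block, -0.51 with the run and, within the higher and the lower run, -0.46 and -0.54, all with length. *Per2* was at -0.90 with the run and length and -0.78 within the lower run with length, and *Nr1d2* at -0.40 with length and GC content. *Cry2* was at 0.29 with the length correction, 0.29 with the block and length and 0.28 with the run and length. It was at 0.19 within the higher run (0.41 with length) and 0.20 within the lower run with length. *Npas2* was at 0.14, 0.14 with the block, 0.14 with the run and 0.19 within the lower run, all with length. *Per1* was at -0.83 within the higher run, at -0.60 there with length and at 0.73 within the lower run with length.

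Counts of members past a threshold, planned under an alternative of p below 0.01 in both packages, are not given, since the diets chose the members. Of the other clock genes, 17 fell with length and GC corrected, and 15 fell within each run with length. With library size as a covariate 9 rose, within the higher run 9 rose, and 4 with length. Leaving out single mice gave 12 to 16 that rose and 25 to 29 that fell. The share of all tested genes is not given beside these counts, which describe only how the list moved. The fits on header numbers were chosen after seeing the data.

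Pairing was checked because the labels number mice 1 to 10 in both diets, but 1 of 10 mice correlated best with its own number. The replicate block alone left *Per3* at -1.25 and called 26 other clock genes lower and 15 higher, again without the share of all tested genes.

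Of the coupled pairs, 3 passed as given and 0 without the 2 mice of most extreme first gene, which leaves 8 mice. The 10 genes most like *Per3* shared 2 with those found without the length correction, 1 with control mice alone and 0 with IDA mice alone. Longest RefSeq transcript lengths were not run, since the RefSeq table used gives gene spans. With longest GENCODE transcripts, chosen in their place, 6 of 9 neighbouring levels in control hearts were ordered, against 7. At 21 to 53 read pairs per IDA library, *Per2* is the member whose single values counting error limits most.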
